A study of Homo sapiens with 4 samples.

Results

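The clustered histone genes encode mainly the replication-dependent forms of the linker histone H1 and of the core histones H2A, H2B, H3 and H4. Their probes were chosen by name alone, as all non-control probes whose gene name begins with HIST, a cluster number and a histone type. This gave 83 of the 34127 probes on the array, under 69 of 25992 gene names. There were 6 probes for 6 H1 genes, 21 probes for 17 H2A genes, 23 probes for 19 H2B genes, 14 probes for 13 H3 genes and 19 probes for 14 H4 genes. Testis forms and the pseudogenes HIST1H2APS1 (H2AC2P) and HIST2H2BA (H2BP1) are counted among these genes. The HIST1 cluster held 67 of the probes at chr6:25726563-27861647 (GRCh37), the HIST2 cluster 12, the HIST3 cluster 3 at chr1:228612646-228646251, and HIST4 was 1 gene at chr12:14924006-14924065. Of the HIST2 probes 11 have a position in the files, all on chromosome 1.

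Levels were measured in human proximal tubular cells (HPTCs) of the lines HK-2 (immortalised by papillomavirus E6 and E7) and RPTEC/TERT1 (immortalised by the catalytic subunit of telomerase). All cells were held without serum and supplements for 24 h and were then given IL-1β at 10 ng/mL together with empagliflozin (Empa), an inhibitor of the glucose transporter SGLT2, at 500 nM for 24 h. Each line had 2 arrays from biological duplicates, and each line is an established line kept in culture and not a tissue. Controls, whether untreated or with IL-1β only, were not analysed here, and no effect of an agent can be read from these levels. A level is the log2 of a probe's processed signal over the 75th percentile of its array, with a floor at -5.37, and the values of a probe are given in the order HK-2 array 1, HK-2 array 2, RPTEC/TERT1 array 1, RPTEC/TERT1 array 2, where the array number is the replicate number of the labels.

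Replication-dependent histone genes are transcribed mainly in S phase, when new DNA has to be packed. Their mRNAs end in a short stem-loop in place of a poly(A) tail, and the stem-loop is bound by SLBP and needed for cutting of the 3′ end, export and translation. Some of these genes also give longer, polyadenylated transcripts, which are known from cells that have left the cell cycle. H2A and H2B genes often lie head to head and share the DNA between their start sites. The kit used for labelling starts from poly(A) tails, so the copies that lack a tail are poorly seen, and which share of a signal came from which kind of copy was not tested.

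The stem-loop can be read in the probes themselves, which is why these sequences are shown first. The rising arm and loop, GGCNCTTTT with N for any base, was searched on the probe strand only and stood in 8 histone probes and in 33 others of the 34127 (0.12% in all). The whole stem-loop of 16 letters, in which this is followed by any base, AG, any base and GCC, stood in 6 of these 8 and in 1 other probe (0.0205% in all), and in the remaining 2 the probe ended before its last letters. The stretch around it is printed 5′ to 3′ as in the deposited files, with the stem-loop letters in capitals, or with all letters from its first to the end of the probe where the longer run was not complete.
HIST1H2AI probe: gaaccaaaGGCTCTTTTCAGAGCCacct
HIST1H2BE probe: aacccaaaGGCTCTTTTCAGAGCCactc
HIST1H2BF probe: atcccaaaGGCTCTTTTAAGAGCCa
HIST1H3H probe: tacccaaaGGCTCTTTTCAGAGCCaccc
HIST1H4A probe: catttctgaaccaaaGGCCCTTTT
HIST1H4K probe: caacaaaaGGCCCTTTTTAGGGCCcc
HIST2H3A probe: atccaaaaGGCTCTTTTCAGAGCCacc
HIST3H2BB probe: ctgaacccaaaGGCTCTTTTCAGA

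A second set of probes, called distal here, lies downstream of other probes of its genes. Where their transcripts end is not given in the files. They were picked, after the values were seen, as the probes placed by the files at least 1000 bases 3′ of another probe of the same gene. The last 30 bases of the 4 that were well above background on any array are given here in lower case, since the stem-loop letters are in none of them.
HIST1H2BK distal probe: ctgttcctcaaagaattgtctacattaccc
HIST1H2AC distal probe: acctgtccactgttggtaggcacttgagtt
HIST2H2BF distal probe: tgccaaataaaatatacccttggtgcaact
HIST2H2BE distal probe: tggtctgtgctttaaatggtaacgctacgg

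The HIST1H2BK probe at chr6:27106191-27106250 starts 8246 bases from the other probe of that gene, and the HIST1H2AC probe at chr6:26138822-26138881 starts 14361 bases from the nearest other one. The HIST2H2BE probe at chr1:149857064-149857123 starts 1037 bases from its partner, and the HIST2H2BF probe at chr1:149397120-149397179 starts 1484 bases from a probe of that gene that was not well above background on any array and 386438 bases from the one that was so on all 4.

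Over all 22832 probes with a value on every array and well above background on any of them, the arrays resembled each other across the labels. HK-2 array 1 correlated best with RPTEC/TERT1 array 2 (Pearson r = 0.980, across probes) and HK-2 array 2 with RPTEC/TERT1 array 1 (r = 0.976), whereas arrays of one label correlated at 0.870 and 0.859. Groups are kept as labelled. Whether an array carries the label of the other line was not tested, and every difference between the lines given here rests on the labels. Between 59.2% and 64.9% of the 43118 spots of an array were well above background. Of 24 probes for proximal tubule and kidney epithelium 15 were well above background on all 4 arrays, among them LRP2, PAX8, KRT18, KRT19 and VIM, whereas neither probe of CUBN was so on any array and SLC34A1 was on 1. The aminopeptidase ANPEP, a brush border enzyme, stood at 0.49, -5.37, -5.37 and 0.47, and the epithelial cadherin CDH1 at -0.72, -5.37, -5.37 and -1.12, both at the floor on the same 2 arrays. The cadherin CDH2, taken up after its values were seen, ran the other way, at -1.55, 2.72, 2.55 and -1.49 and at -3.16, 0.28, 0.96 and -3.47 by its probes. Of 22 ranked probes of this list 11 were highest on HK-2 array 1 and RPTEC/TERT1 array 2 and 6 on the other pair. Of 12 probes for other kidney cells, 4 were well above background on all 4 arrays and 6 on none; the podocyte gene NPHS1 stood at -2.25, -4.52, -4.88 and -3.65, and no probe of PTPRC, a leukocyte gene, was above -2.03. The part of these differences in the histone levels was not tested.

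Histone probes were widely detected. In all, 60 of the 83 were well above background on all 4 arrays, 15 on some and 8 on none. The 8 were those of HIST1H1T, HIST1H2AG, HIST1H2APS1, HIST1H2BA, HIST2H2BA, HIST3H2A and HIST4H4 and 1 of the 3 of HIST2H2BF. The median level over all histone probes was -0.33 on HK-2 array 1, 0.67 on HK-2 array 2, -0.35 on RPTEC/TERT1 array 1 and 0.06 on RPTEC/TERT1 array 2. The range of a probe over the 4 arrays exceeded 2 log2 units for 28 of 74 histone probes (37.8%), beside 18.5% of the 22832 probes, a range that reaches the floor being a lower bound. These 74, called ranked here, are the histone probes that were well above background on any array and had a value on every array.

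**Figure D1:**
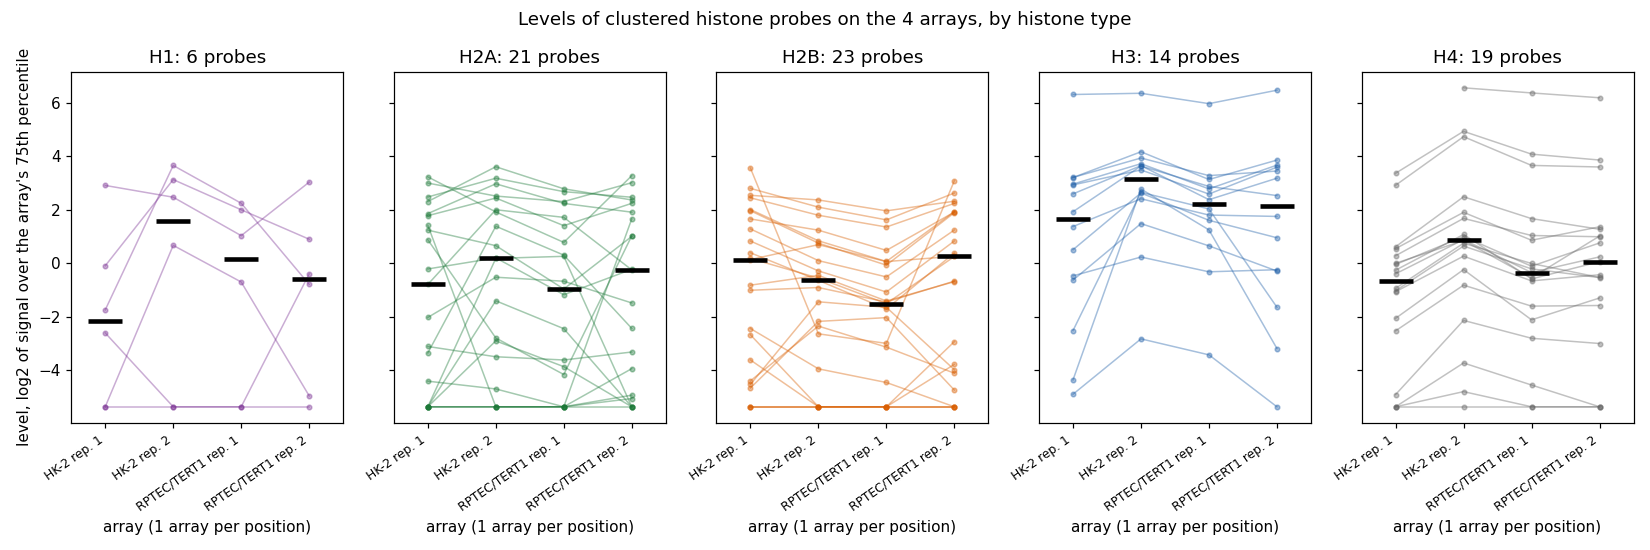
Levels of all 83 histone probes on each of the 4 arrays, in 5 panels by histone type; the y axis is log2 of the signal over the array's 75th percentile, each line is a probe, and the black bars are medians. The H3 and H4 medians are highest on HK-2 array 2 (3.14 and 0.85), and the H2B median is lowest on RPTEC/TERT1 array 1 (-1.51).

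The H1 genes differed in which arrays were high. H1 binds the DNA between nucleosomes. HIST1H1B (H1.5) stood at -5.37, 0.67, -0.70 and -4.96, HIST1H1D (H1.3) at -1.75, 3.66, 2.25 and -0.79, and HIST1H1E (H1.4) at -0.09, 3.13, 2.00 and 0.90. All 3 were thus highest on HK-2 array 2 and next on RPTEC/TERT1 array 1. HIST1H1C (H1.2), which is also known to be expressed outside S phase, stood at 2.91, 2.47, 1.03 and 3.04. HIST1H1A (H1.1) stood at -2.61, -5.37, -5.37 and -0.40. These last 2 genes were highest on the other pair of arrays, RPTEC/TERT1 array 2 and HK-2 array 1. The testis form HIST1H1T was at the floor throughout. In each of the 5 detected H1 genes the ranges of the labelled cell lines overlapped.

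H2A and H2B pair with each other in the nucleosome core. H2A probes split as the H1 genes did. Of the 18 ranked, 9 were highest on HK-2 array 2 and RPTEC/TERT1 array 1, and 7 on HK-2 array 1 and RPTEC/TERT1 array 2. HIST1H2AI, by the probe that holds the stem-loop, stood at -5.37, 0.18, 0.26 and -5.37, at the floor on 1 array of each label. HIST1H2AJ stood at 2.31, 3.61, 2.79 and 2.37, and HIST1H2AK at 2.48, 3.18, 2.68 and 2.47. The probes of these 2 genes share a run of 24 bases, so that each may also bind the RNA of the other. HIST1H2AE stood at 1.24, 0.66, -0.96 and 1.00, and HIST2H2AB at 3.00, 2.52, 2.31 and 3.01. HIST2H2AA4, whose probe lists 2 RefSeq RNAs, stood at 0.88, -2.80, -4.16 and 1.03. For these last 3 the levels were highest on RPTEC/TERT1 array 2 and HK-2 array 1, with a range of 5.19 for HIST2H2AA4.

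HIST1H2AC was measured by 3 probes that did not run together. Its distal probe stood at 1.42, -5.37, -5.37 and 1.66. The other 2 lie 58 bases apart near the start of the gene and stood at -3.12, -3.50, -3.62 and -3.32, and at -0.21, 0.20, -1.18 and -0.23. The distal probe was not well above background on HK-2 array 2 and RPTEC/TERT1 array 1, so that its range of 7.03 log2 units is a lower bound set by the floor, and the other 2 had ranges of 0.51 and 1.38. The probes of HIST1H2AM also differed in range, over a much shorter distance, but the one with the larger range had the opposite order of arrays. Its probe at chr6:27860507-27860566 stood at -3.36, 1.39, 0.30 and -2.44, whereas the probe 70 bases away stood at 1.78, 2.44, 1.41 and 2.24.

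Among H2B probes the order was turned. Of the 20 ranked, 12 were highest on HK-2 array 1 and RPTEC/TERT1 array 2 (60%, beside 35.8% of all probes), and 3 on HK-2 array 2 and RPTEC/TERT1 array 1. RPTEC/TERT1 array 1 was the lowest array for 14 of the 20. HIST1H2BD stood at 0.83, -0.29, -1.08 and 0.83, HIST1H2BC at 0.39, -0.64, -1.71 and 0.39, and HIST1H2BG at 0.18, -0.56, -1.51 and 0.25. In all 3 genes the levels on HK-2 array 1 and RPTEC/TERT1 array 2 nearly coincided and lay above the others. HIST1H2BL stood at 2.80, 2.10, 1.62 and 2.63 and HIST1H2BO at 2.45, 1.80, 1.36 and 2.24, with the same order of the arrays. Their probes share a run of 31 bases.

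HIST1H2BK had the largest range of the H2B genes. Its distal probe stood at 3.56, -2.64, -3.00 and 3.09, and its other probe at 1.28, 0.10, -0.51 and 1.24. That other probe lists 4 RefSeq RNAs, among them the one of the distal probe, and shares 32 bases with the probe of HIST1H2BD. Both were highest on HK-2 array 1 and lowest on RPTEC/TERT1 array 1, and the range was 6.56 for the first and 1.80 for the second. HIST2H2BE, one of the H2B genes known for polyadenylated transcripts, stood at -3.62, -5.37, -5.37 and -3.78 by its distal probe and at -2.44, -3.95, -4.46 and -5.37 by the other. In contrast, HIST1H2BE stood at -4.53, -1.44, -1.65 and -3.98, highest on HK-2 array 2, by a probe that holds the stem-loop. HIST1H2BH stood at 2.54, 2.37, 1.96 and 2.32, a range of 0.58. HIST1H2BH and the upstream HIST2H2BE probe were 2 of the 3 histone probes whose HK-2 arrays both lay above both RPTEC/TERT1 arrays.

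H3 and H4 form the centre of the nucleosome core, and their tails carry many of the marks of active and silent chromatin. No H3 probe had the order that was most frequent for H2B. Of 14 H3 probes, 7 were highest on HK-2 array 2 and RPTEC/TERT1 array 1 and 7 on HK-2 array 2 and RPTEC/TERT1 array 2. HK-2 array 2 was the single highest array for 12 of them. HIST2H3A stood at -4.37, 2.78, 1.25 and -3.19, by a probe that holds the stem-loop, and HIST1H3B at -2.52, 2.66, 2.03 and -1.65. These 2 probes ranged over 7.15 and 5.18 log2 units. HIST1H3E stood at 3.21, 4.17, 3.13 and 3.86 and HIST2H3D at 3.21, 3.94, 3.28 and 3.45, with ranges of 1.04 and 0.73. The stem-loop probe of HIST1H3H stood at -4.90, -2.83, -3.43 and -5.37, and was well above background on 2 arrays.

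H4 probes were also highest on HK-2 array 2 in most cases. Of 17 ranked, 8 were highest on HK-2 array 2 and RPTEC/TERT1 array 1, 8 on HK-2 array 2 and RPTEC/TERT1 array 2, and 1 was tied. HK-2 array 2 was above HK-2 array 1 in all 17, by a median of 1.57. HIST1H4B stood at 2.92, 4.74, 3.66 and 3.60, and HIST1H4D at 0.62, 2.49, 1.67 and 1.27 by its probe with the larger range. HIST1H4F stood at -2.06, -0.24, -2.12 and -1.30. For these 3 genes HK-2 array 2 was the highest, and the labelled lines overlapped. HIST1H4L stood at 3.37, 4.94, 4.08 and 3.86 by one probe and at -4.92, -2.14, -2.81 and -3.00 by another 105 bases away, with the same order of the 4 arrays. A probe of HIST1H4C, named here after its values were seen, stood at 6.57, 6.37 and 6.19 on HK-2 array 2 and both RPTEC/TERT1 arrays. Its spot was an outlier on HK-2 array 1 and saturated on HK-2 array 2, so it was left out of the comparison of the lines.

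**Figure D2:**
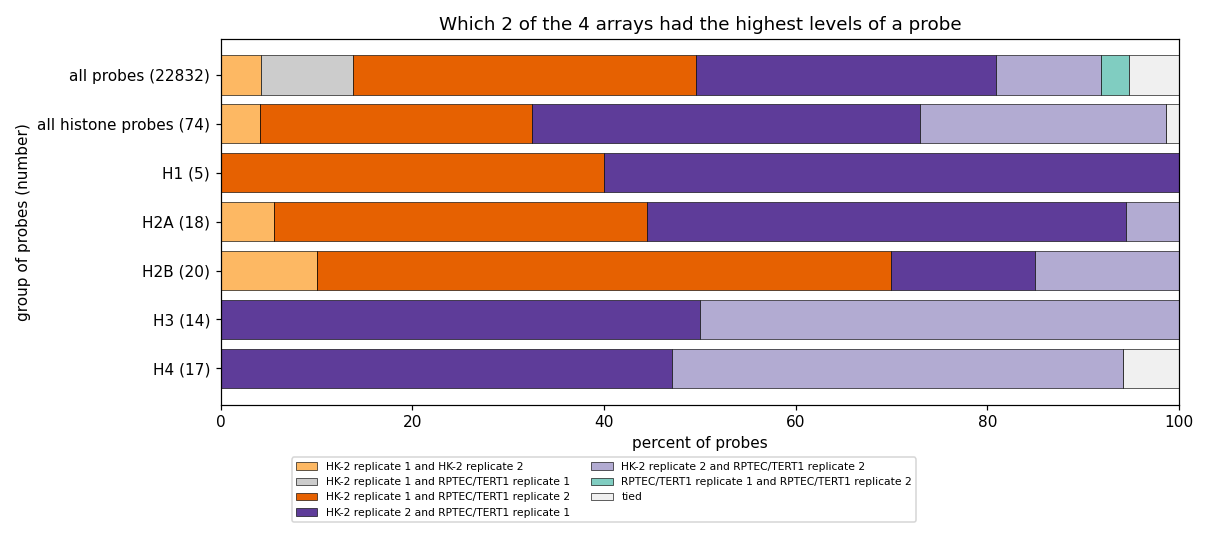
Percent of probes by the 2 arrays on which a probe was highest, for all 22832 probes, the 74 ranked histone probes and each histone type (number of probes in brackets). HK-2 array 1 with RPTEC/TERT1 array 2 takes 60% of H2B probes and none of the H3 or H4 probes.

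Taking all histone probes, 30 of 74 (40.5%) were highest on HK-2 array 2 and RPTEC/TERT1 array 1, beside 31.3% of all probes, and 21 (28.4%) on HK-2 array 1 and RPTEC/TERT1 array 2, beside 35.8%. The pair HK-2 array 2 and RPTEC/TERT1 array 2 took 19 (25.7%), beside 10.9% of all probes. In cluster HIST1 27 of 62 probes were of the first kind and 16 of the second. In HIST2 these were 2 and 5 of 10. Several of these probes share bases, 27 of the 83 having a run of 20 or more in common with a probe of another histone gene, so the counts are not of independent measurements.

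Of the 8 probes with the stem-loop letters, 7 were highest on HK-2 array 2 and RPTEC/TERT1 array 1 (87.5%, beside 31.3% of all probes). Their median was -4.60 on HK-2 array 1, -1.81 on HK-2 array 2, -1.84 on RPTEC/TERT1 array 1 and -4.43 on RPTEC/TERT1 array 2. All 8 were well above background on HK-2 array 2 and on RPTEC/TERT1 array 1, and 3 and 4 of them on the other arrays. Those of HIST1H2AI, HIST1H2BE, HIST1H3H, HIST2H3A and HIST3H2BB each share a run of 21 to 25 bases with another of the 8. The 7 are thus not independent measurements. Of the 7 with this order 4 were well above background on those 2 arrays alone, so that detection itself fixed their order, and HIST1H2BE, HIST2H3A and HIST3H2BB were so on 3 or 4 arrays. The exception, HIST1H4K, which is named for that reason, stood at -0.05, 1.00, -0.11 and 0.76. The 4 detected distal probes had the opposite order. In 3 of them both lower arrays were at the floor and not well above background, so for these too detection fixed the order, and the set was chosen with the values seen. HIST2H2BF, also chosen after its values were seen, stood at -2.68, -5.37, -5.37 and -2.93.

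The probe outside the histone names that holds the longer run is named only by a transcript of Ensembl, ENST00000607355, and lies at chr1:149823132-149823191, within 1000 bases of the HIST2H2AA4 probe. This probe, chosen after its values were seen, stood at 4.85, -1.77, -2.63 and 4.85. Its order was thus that of HIST2H2AA4 and of the distal probes, and not that of the 7.

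**Figure D3:**
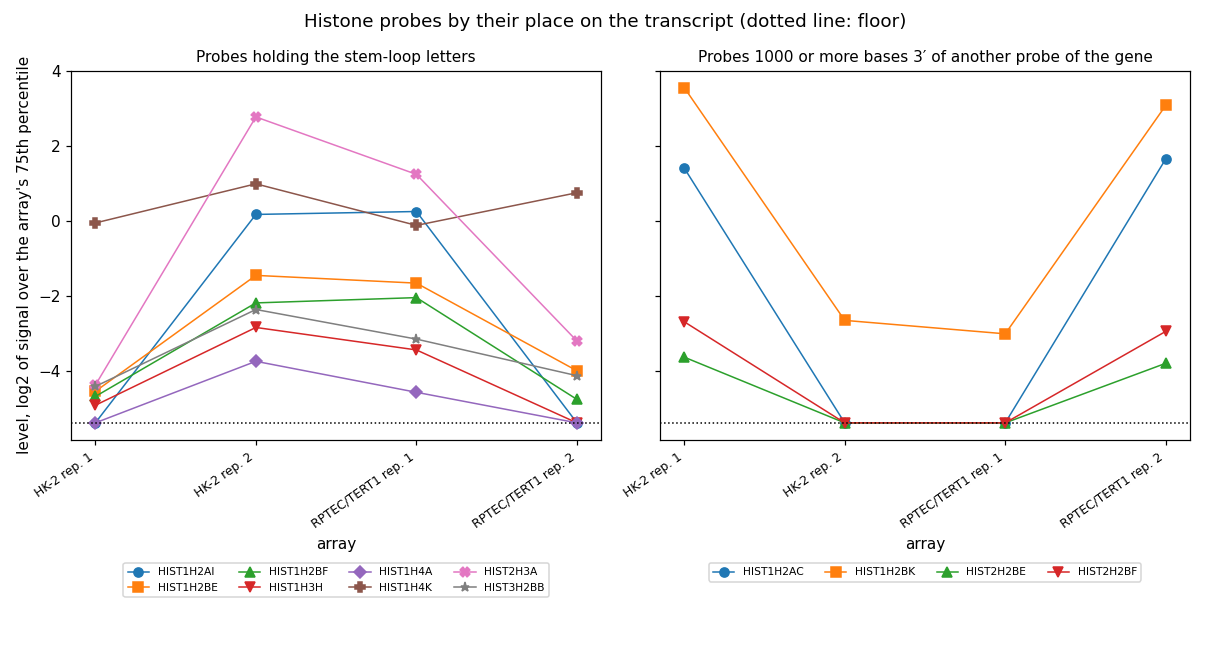
Levels on the 4 arrays (log2 of the signal over the array's 75th percentile) of the 8 histone probes with the stem-loop letters, left, and of the 4 detected probes 1000 or more bases 3′ of another probe of their gene, right; each line is a probe and the dotted line is the floor of -5.37. On the left 7 lines peak in the middle, and on the right all 4 are lowest there.

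Head to head H2A and H2B genes did not always move together. The promoter table places 11 H2A genes next to an H2B gene on the opposite strand, with start sites 194 to 248 bases apart, and in 5 pairs both genes were well above background on all 4 arrays. HIST1H2AJ was highest on HK-2 array 2, as given above, whereas its neighbour HIST1H2BM stood at 1.97, 0.75, -0.07 and 1.89. Their start sites are 245 bases apart. The HIST1H2BM probe shares a run of 23 bases with the probe of HIST1H2BI, so it may also bind the RNA of that gene. HIST1H2BI, named for that reason, stood at 2.01, 0.84, 0.07 and 1.93. For HIST1H2AM and HIST1H2BO, 240 bases apart, the answer depended on the probe. The mean of the 2 HIST1H2AM probes, -0.79, 1.91, 0.86 and -0.10, ran against HIST1H2BO through the probe with the larger range, whereas the other was lowest on RPTEC/TERT1 array 1, as HIST1H2BO was. In HIST1H2AE and HIST1H2BG, by contrast, both genes were highest on HK-2 array 1 and RPTEC/TERT1 array 2. HIST1H2BN, the neighbour of HIST1H2AK, stood at -1.01, -0.91, -1.45 and -0.67, a range of 0.78.

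**Figure D4:**
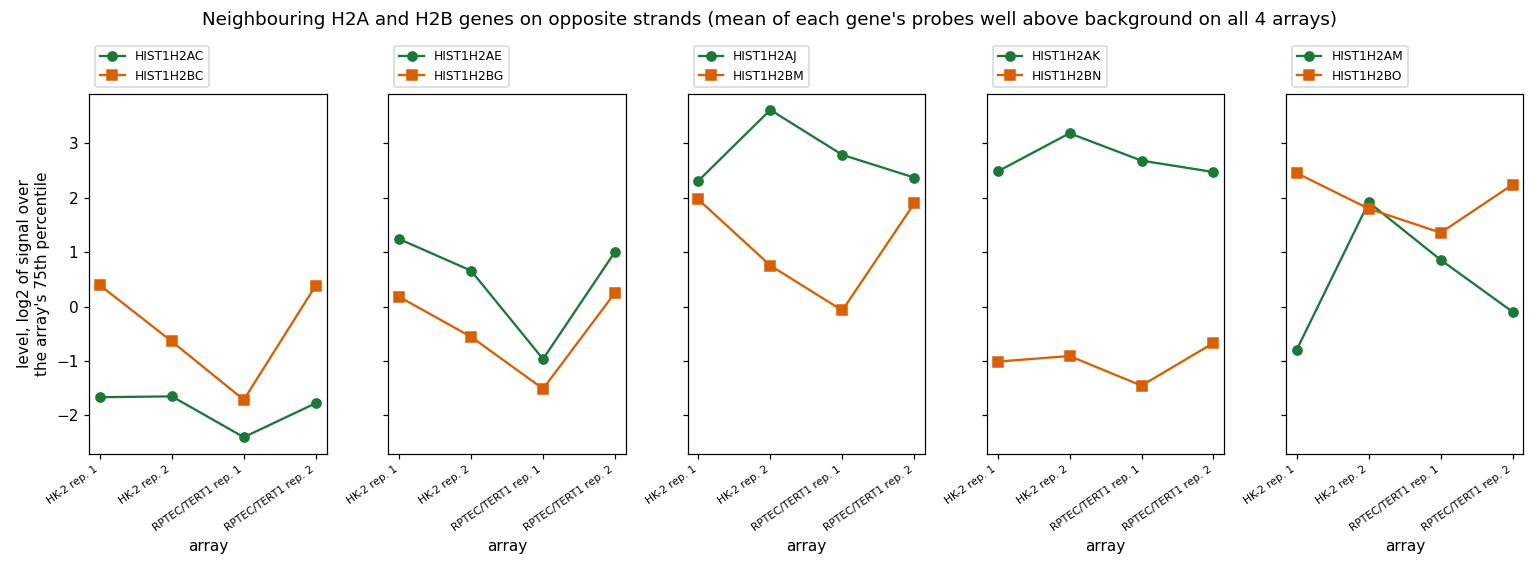
Levels on the 4 arrays (log2 of the signal over the array's 75th percentile) of the 5 neighbouring H2A and H2B pairs, 1 panel a pair, as the mean of each gene's probes that were well above background on all 4 arrays; only the course over the arrays can be compared between genes, not the height. The lines of HIST1H2AE and HIST1H2BG run alike, and those of HIST1H2AJ and HIST1H2BM run against each other. The HIST1H2BM probe shares 23 bases with the probe of HIST1H2BI.

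The window between HIST1H2AJ and HIST1H2BM is shown with the promoters of 4 other genes, chosen as HIST1H1B and HIST2H3A against HIST1H1C and HIST1H2BK because their arrays ran in opposite order. Each runs from 250 bases before to 50 bases after the start site, 5′ to 3′ on the strand of the gene, from RefSeq on GRCh38.p14, and lies at chr6:27814772-27815071 (+) for HIST1H2BM, chr6:27867539-27867838 (-) for HIST1H1B, chr1:149852358-149852657 (+) for HIST2H3A, chr6:26056421-26056720 (-) for HIST1H1C and chr6:27146809-27147108 (-) for HIST1H2BK. Capitals mark the CCAAT and the TATAAA box, the octamer ATTTGCAT, the H1 box AAACACA and the E2F form TTTCGCGC on either strand, and neighbouring matches may run into each other.
HIST1H2BM promoter: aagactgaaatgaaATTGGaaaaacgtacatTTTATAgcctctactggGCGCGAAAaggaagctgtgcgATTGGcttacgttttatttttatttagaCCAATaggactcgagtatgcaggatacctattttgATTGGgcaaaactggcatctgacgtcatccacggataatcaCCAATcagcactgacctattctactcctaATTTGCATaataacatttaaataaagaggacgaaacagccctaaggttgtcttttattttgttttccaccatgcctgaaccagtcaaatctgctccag
HIST1H1B promoter: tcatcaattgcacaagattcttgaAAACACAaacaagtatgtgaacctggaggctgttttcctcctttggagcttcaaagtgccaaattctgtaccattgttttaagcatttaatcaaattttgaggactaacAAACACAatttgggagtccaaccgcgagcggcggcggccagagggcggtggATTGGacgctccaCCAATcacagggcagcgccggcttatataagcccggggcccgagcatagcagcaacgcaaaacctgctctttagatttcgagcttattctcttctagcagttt
HIST2H3A promoter: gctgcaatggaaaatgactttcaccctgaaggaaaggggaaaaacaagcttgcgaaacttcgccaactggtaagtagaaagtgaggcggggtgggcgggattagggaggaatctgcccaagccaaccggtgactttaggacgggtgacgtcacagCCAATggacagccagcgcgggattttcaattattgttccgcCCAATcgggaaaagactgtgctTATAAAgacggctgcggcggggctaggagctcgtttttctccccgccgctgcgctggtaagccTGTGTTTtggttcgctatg
HIST1H1C promoter: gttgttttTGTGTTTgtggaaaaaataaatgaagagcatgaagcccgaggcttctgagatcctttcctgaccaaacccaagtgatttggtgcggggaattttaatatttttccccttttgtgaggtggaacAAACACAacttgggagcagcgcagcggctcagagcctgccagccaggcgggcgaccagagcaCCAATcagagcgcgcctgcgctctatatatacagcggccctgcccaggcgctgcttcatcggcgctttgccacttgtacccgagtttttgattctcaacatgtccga
HIST1H2BK promoter: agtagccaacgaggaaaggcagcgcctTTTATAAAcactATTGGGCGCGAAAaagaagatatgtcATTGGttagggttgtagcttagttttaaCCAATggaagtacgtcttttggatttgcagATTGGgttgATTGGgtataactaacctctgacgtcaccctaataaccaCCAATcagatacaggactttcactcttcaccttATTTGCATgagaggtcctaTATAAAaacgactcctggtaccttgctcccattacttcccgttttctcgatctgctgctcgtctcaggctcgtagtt

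Of the 69 genes 62 had a promoter in the table, 66 promoters in all. CCAAT, the letters bound by NF-Y, stood in 86.4% of them and in 34.6% of all 35116 promoters of the same length. It stood in all H1, H2A, H2B and H3 promoters but in only 3 of 12 H4 promoters (25%). TATAAA stood in 66.7%, beside 11.5%. ATTTGCAT, the octamer known from H2B promoters, stood in 75% of the H2B and 73.3% of the H2A promoters, beside 1.77% of all. The windows of head to head genes cover much of the same DNA and both strands were searched. The same octamer can thus count in both shares. AAACACA, known from H1 promoters, stood in all 6 of those, HIST1H1B and HIST1H1C alike, beside 5.64% of all. TTTCGCGC, a form of the E2F site, stood in 19.7%, beside 0.515%. By type it stood in 33.3% of the H2A, 35% of the H2B and 7.69% of the H3 promoters, and in no H1 or H4 promoter. The HIST1H2BM and HIST1H2BK promoters, of genes that were both highest on HK-2 array 1, hold 4 of the 5 motifs. The HIST1H2BM window also lies before HIST1H2AJ, which was highest on HK-2 array 2. Whether motifs go with the order of the arrays was not tested.

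Testis histones were given separately, since they package the genome of male germ cells. HIST1H1T and HIST1H2BA were not well above background on any array. HIST1H2AA was well above background on all 4 arrays but dim, at -4.41, -4.70, -5.37 and -3.94, with RPTEC/TERT1 array 1 at the floor. HIST3H3 stood at 6.32, 6.36, 5.97 and 6.48, a range of 0.50. Its probe shares no more than 14 bases with a probe of another histone gene, and whether it binds RNA of genes outside these names was not tested.

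Between the labelled cell lines, no histone gene passed the test. Of 73 histone probes tested with limma, none passed an adjusted p of 0.05 (all probes: 0%, 0 of 20807), and none had an unadjusted p under 0.05 (all probes: 0.125%, 26 of 20807). The median difference, HK-2 minus RPTEC/TERT1, was 0.21 over the histone probes, with 62 of 73 above 0, and 0.02 over all probes, with 11078 of 20807 above 0. It was 0.23 for H1, 0.27 for H2A, 0.32 for H2B, 0.17 for H3 and 0.18 for H4. Arrays of one replicate number shared a scan date. Within number 1 the median over the 74 ranked histone probes was 0.03, and within number 2 it was 0.55. The median over the tested probes was -0.24 without HK-2 array 2, so a single array decided its sign, and it was 0.67 without HK-2 array 1, 0.05 without RPTEC/TERT1 array 1 and 0.36 without RPTEC/TERT1 array 2.

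**Figure D5:**
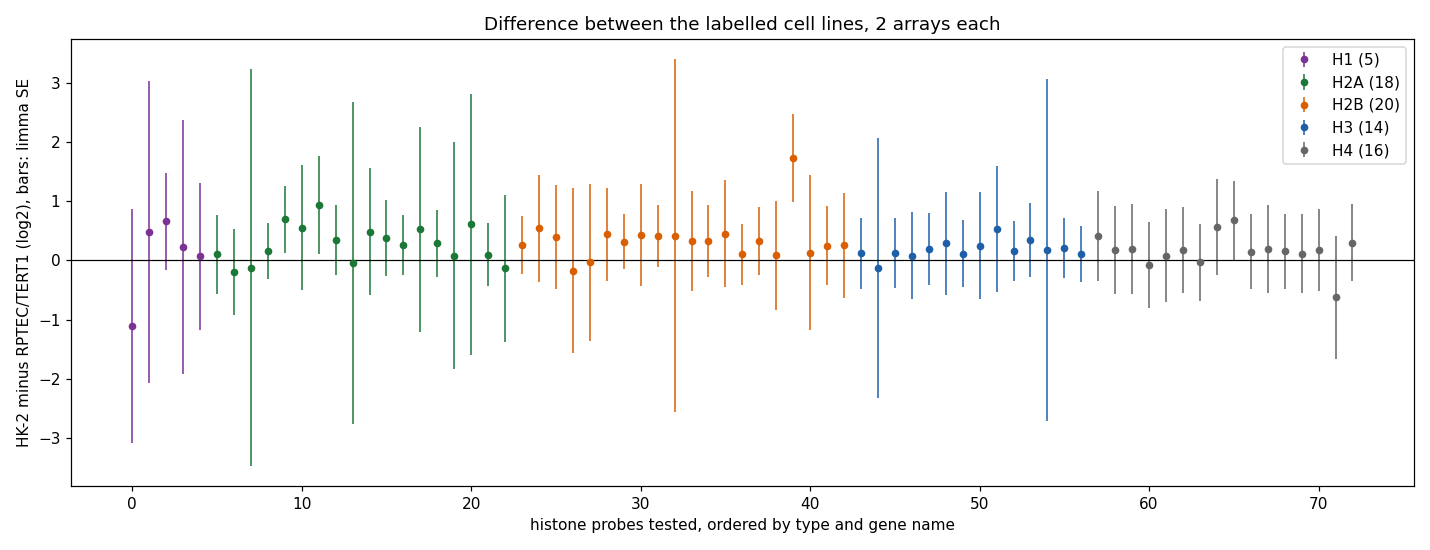
Difference between the labelled cell lines, HK-2 minus RPTEC/TERT1 in log2 units, for the 73 histone probes tested, ordered by type and gene name; points are differences of the means of 2 arrays each and bars the limma standard errors. The bars of all but 4 probes reach 0.

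The 5 largest differences were led by HIST2H2BE by its upstream probe (1.72 ± 0.74, SE) and HIST1H1A (-1.11 ± 1.98). The others were those of HIST1H2AE (0.93 ± 0.82), HIST1H2AC by its probe at chr6:26124461-26124520 (0.70 ± 0.56) and HIST1H4H (0.67 ± 0.67). HIST1H4H stood at -0.26, 1.08, -0.59 and 0.06, so that its lines overlapped. HIST2H2BE had an unadjusted p of 0.076 and an adjusted p of 1 in limma, and was at the floor on 1 array. For HIST1H1C the difference was 0.66 ± 0.82, for HIST1H2BD 0.39 ± 0.87 and for the probes of HIST1H2BK 0.42 ± 2.98 and 0.33 ± 0.84. The distal probes of HIST1H2AC and HIST2H2BE gave -0.12 ± 3.34 and 0.08 ± 0.91, and the third HIST1H2AC probe 0.16 ± 0.47. HK-2 arrays both lay above both RPTEC/TERT1 arrays for 3 of 74 histone probes, 4.05% beside 4.22% of all probes, and the reverse held for none, beside 2.92%. With 2 arrays a line the precision is low, the limma standard errors running from 0.46 to 3.34. Arrays of one label correlated at 0.870 and 0.859, below the 0.980 and 0.976 of pairs across the labels. This widens the errors, so the test could hardly call a probe. Thus p-values that miss the threshold do not show that the lines were alike.

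The genes that serve histone mRNA and its protein were compared on the same arrays, and in limma none passed the adjusted threshold between the lines or had an unadjusted p under 0.05. Of 13 genes for histone mRNA synthesis and 3′ end formation, with 15 probes, 10 probes were highest on HK-2 array 2 and RPTEC/TERT1 array 1 and 2 on the other pair. SLBP, which binds the stem-loop, stood at 2.26, 4.02, 4.36 and 2.02. CASP8AP2 (FLASH), which acts in histone 3′ end cutting, stood at -2.38, -0.40, -0.43 and -2.73. Among histone chaperones, which carry histones to DNA, 20 of 25 ranked probes had this order and none the opposite. ASF1B stood at -2.62, 1.38, 1.96 and -2.79, and HJURP, the chaperone of the centromeric H3 form, at -2.20, 4.17, 4.33 and -1.79.

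All 20 ranked probes of the S phase list were highest on HK-2 array 2 and RPTEC/TERT1 array 1, and the medians over these 20 were -3.37, 2.02, 2.21 and -3.19. Cyclin A2 (CCNA2) stood at -5.36, 1.25, 1.82 and -5.01, and RRM2, a subunit of ribonucleotide reductase, at -5.11, 2.44, 2.97 and -4.71. In bulk RNA, fewer cells in S phase and less RNA per cell cannot be told apart. The list of replication-independent histones was less uniform, with 7 of 13 ranked probes of the order of the S phase list and 3 of the opposite one. CENPA, the centromeric H3 form, stood at -5.37, 1.47, 1.04 and -5.35, and H2AFJ at 2.88, 1.52, 0.89 and 3.35. In H2AFJ the higher arrays were those that were higher for HIST1H2BK, HIST1H2AC by its distal probe and HIST2H2AA4.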

How the data were processed

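RNA of HPTCs was hybridised to 1-colour Agilent arrays of 60-base probes. The authors deposited spot intensities read with Feature Extraction 9.5.3.1, per the file headers after background subtraction and without scaling between arrays. A log2 table of these spots was deposited too, with medians of 8.31, 7.04, 6.67 and 6.65 on HK-2 arrays 1 and 2 and RPTEC/TERT1 arrays 1 and 2. Their ranks follow the spot median minus background, no source used here gives their normalization, and they served as an alternative. For RNA isolation the labels give RNeasy and the methods innuPREP. Genome positions of probes are those of the files (GRCh37).

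Without outlier spots, each signal was scaled to its array's 75th percentile, set to at least 0.0242 and taken to log2, and spots of a probe were averaged. To find this floor, the dimmest scaled signal well above background was read on each array, and the highest of the 4 was used. The processed signal after background subtraction can lower dim probes, so values near the floor have no order. HK-2 and RPTEC/TERT1 were compared with limma 3.58.1 (R 4.3.3) over 20807 probes well above background on at least 2 arrays, with Benjamini-Hochberg adjustment at 0.05, two-sided. A histone probe without a value on an array was not tested. On simulated data, with independent arrays and a spread of 0.2, limma recovered 181 of 200 probes changed by 1 log2 unit, with 11 false calls. At a change of 2 it recovered all 200, with 7 false calls. The real arrays resembled each other across the labels, and the median limma standard error over all probes was 0.59. The simulation thus checks the step and not what it can find in these arrays.

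All 83 probes matched a RefSeq gene, 76 by accession and 7 by an older symbol. Named in the text are HIST1H1C, HIST1H2AC, HIST1H2BD, HIST1H2BK and HIST2H2BE, the 3 probes of each type with the highest mean and with the largest range, the 5 largest differences, the testis forms, the H2A and H2B pairs and the 2 probes with the largest range of each gene list. Exceptions are marked, and further marker genes are named only to check the cells. The members, gene lists and tests were chosen with earlier results of these data known. Replicate numbers are shared across the lines, and every array has a slide to itself, so no slide block could be fitted. Deviations of same-numbered arrays from their label means correlated at -0.770 across 22832 probes. Alternatives were normexp correction with an offset of 50, the log2 values, quantile normalization, other filters, gene means, the replicate block, outlier spots kept and each array left out.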

Additional observations from a re-analysis of the deposited data

Results flagged for a closer look

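In H1 and in H2B the median change from replicate 1 to replicate 2 had opposite signs in the labelled cell lines. Over the 5 detected H1 probes it was 3.23 in HK-2 and -1.10 in RPTEC/TERT1, apart by 4.33. Over the 20 ranked H2B probes it was -0.72 in HK-2 and 1.22 in RPTEC/TERT1, apart by -1.94, and 14 of the 20 were lower in HK-2 array 2 while 16 were higher in RPTEC/TERT1 array 2. Each change rests on 1 array against 1, and the difference between the lines was not tested.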

How the results depend on the processing

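No histone probe was called between the labelled lines under any of 14 alternatives, 10 with all 4 arrays and 4 with 1 array left out, where the remaining array of a line was assumed to vary like the others. At an unadjusted p under 0.05 limma gave 5 to 298 of all probes and 0 or 1 histone probe. Replicate numbers mark a shared scan date but could not be shown to pair the arrays, and with the replicate block 0 probes were called, 5 at an unadjusted p under 0.05. The crossed pairing, chosen after seeing the data, gave 0 calls and 192 at an unadjusted p under 0.05, of which 1 was a histone probe. Of 42 named probes tested, 25 changed the sign of their difference under an alternative with 4 arrays and 38 with 1 array left out. Of the 5 largest differences, HIST2H2BE by the upstream probe, HIST1H2AC by the probe at chr6:26124461-26124520 and HIST1H4H kept their sign under every alternative run for them. For these HIST2H2BE and HIST1H2AC probes both HK-2 arrays lay above both RPTEC/TERT1 arrays, so leaving out 1 array could not turn the sign. The block fits and the other filters leave the difference of a probe as it is, so they could not turn it either. With probes well above background on all 4 arrays, the median histone level moved to 0.55 and 1.58 on HK-2 arrays 1 and 2 and to 0.72 and 1.01 on RPTEC/TERT1 arrays 1 and 2, as fewer dim probes were counted. With at least 2 arrays it was 0.57 on RPTEC/TERT1 array 2. Under normexp correction the difference turned to -0.012 for HIST1H2BD and to -0.26 and -0.0067 for the distal and the other probe of HIST1H2BK. Without spots of bright background in addition, an alternative added after seeing the data, it turned to -0.037 for the HIST1H2AC probe nearest the start and to -0.20 for the distal probe of HIST2H2BE, and the cause was not tested. With 1 array left out the difference ran from -3.59 to 1.38 for HIST1H1A, from -0.34 to 1.66 for HIST1H1C, from -3.64 to 3.40 for the distal and -0.028 to 0.36 for the first probe of HIST1H2AC, from -0.055 to 1.91 for HIST1H2AE, and from -0.56 to 1.35 for HIST1H2BD. It ran from -2.68 to 3.52 and from -0.55 to 1.20 for HIST1H2BK and from -0.79 to 0.96 for the distal probe of HIST2H2BE. For the upstream HIST2H2BE probe it ran from 0.97 without HK-2 array 1 to 2.48 without HK-2 array 2, and it was 0.40 without spots of bright background. For the HIST1H2AC probe at chr6:26124461-26124520 it ran from 0.22 without RPTEC/TERT1 array 1 to 1.17 without RPTEC/TERT1 array 2. For HIST1H4H it ran from 0.0044 without HK-2 array 2 to 1.34 without HK-2 array 1. The median difference ran from -0.24 to 0.67. Probes near the floor, among them most with the stem-loop, are limited by signal over background.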
